A study of Homo sapiens with 6 samples.

Results

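Described here are 10 genes that encode subunits of the SWI/SNF (BAF) chromatin remodelling complexes: ARID1A, ARID1B, ARID2, PBRM1, SMARCA2, SMARCA4, SMARCB1, SMARCC1, SMARCC2 and SMARCE1. They were chosen by gene symbol and are 10 of the 58735 genes in the deposited table, and all 10 passed the filter on low counts, as did 17299 genes in all. RNA-seq was run on Ishikawa cells, an established human endometrial cancer cell line, 48 hours after lipofection with an siRNA against TCF19 (siTCF19, 3 libraries) or with a negative control siRNA (siNC, 3 libraries), and all cells were grown in DMEM with serum. The labels name no second siRNA, rescue or untransfected cells, so the loss of TCF19 and other effects of the siRNA cannot be told apart. Whether replicate libraries are separate cultures is not stated either, so the p-values reflect the scatter of these libraries, which may be technical.

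SWI/SNF complexes use the energy of ATP to slide or evict nucleosomes, which opens enhancers and promoters to transcription factors. Each complex holds 1 of 2 alternative ATPases, SMARCA4 (BRG1) or SMARCA2 (BRM), and the BAF and PBAF forms build on a core with SMARCC1, SMARCC2, SMARCB1 and SMARCE1. The accessory subunits define the type of complex: ARID1A or ARID1B mark canonical BAF, ARID2 and PBRM1 mark PBAF, and a non-canonical form carries BRD9 and lacks SMARCB1 and SMARCE1. In the endometrium the family is best known through ARID1A, which is among the genes most often mutated in endometrioid carcinoma, and SMARCA4 and SMARCB1 are lost in some undifferentiated endometrial tumours.

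The libraries held 14680022 to 16244705 counts, and 3 counts equal 0.190 to 0.206 CPM (counts scaled to a common library size with TMM factors). TCF19, the target, had 42.7, 35.3 and 39.1 CPM in siTCF19, against 177, 185 and 177 CPM in siNC, and its log2 fold change was -2.20 ± 0.06 (SE; edgeR adjusted p = 6.15e-29). All 9 epithelial markers on the list passed the filter, with a summed level of 2970 to 3100 CPM in siTCF19 and 3110 to 3270 CPM in siNC. Single epithelial markers went both ways. CDH1, KRT19, MUC1 and CLDN3 were called higher, KRT8 and KRT18 were called lower, and EPCAM, PAX8 and CLDN4 were not called. CDH1 averaged 304 CPM in siTCF19 and 199 CPM in siNC, and KRT8 666 CPM in siTCF19 and 881 CPM in siNC. Of 8 stromal markers 3 passed (summed 127 to 136 CPM in siTCF19 and 178 to 181 CPM in siNC), and DCN had no count in any library. Of these COL1A1 was higher (26.7 CPM in siTCF19 and 17.9 CPM in siNC) and COL1A2 lower (101 CPM in siTCF19 and 161 CPM in siNC). The 4 endothelial markers summed to 13.8 to 17.3 CPM in siTCF19 and 6.56 to 6.99 CPM in siNC. VWF was the gene behind the higher sum (15.5 CPM in siTCF19 and 5.13 CPM in siNC), while CDH5 was called lower (0.259 CPM in siTCF19 and 0.978 CPM in siNC) and PECAM1, which did not pass the filter, had 0.108 CPM in siTCF19 and 0.627 CPM in siNC. The 4 leukocyte markers summed to at most 0.322 CPM in siTCF19 and 2.12 CPM in siNC. The part of these other cell types' markers in the subunit results was not tested.

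After TCF19 knockdown 2 of the 10 subunit genes rose, 5 fell and 3 were not called. SMARCA2, the less abundant ATPase, and PBRM1, the bromodomain subunit of PBAF, rose by 31.8% and 30.7%, while SMARCA4, the more abundant ATPase, fell by 14.3%, and SMARCB1, ARID2, SMARCC1 and SMARCC2 fell by 8.85% to 11.5%. Of the falls only that of SMARCA4 stayed called with library-size-only scaling or without siNC replicate 2, each of which left 1 member lower. ARID1A, ARID1B and SMARCE1 were not called. In bulk RNA, fewer cells of a type and less RNA per cell cannot be told apart. Calls rest on edgeR's quasi-likelihood test with an adjusted p below 0.05. Of all 17299 tested genes 41.5% were called, 20.7% higher and 20.8% lower, and of the 7990 genes within the members' range of mean level (22.5 to 419.8 CPM) 56.3% were called, beside 7 of 10 here. The libraries of the groups did not overlap for 6 of the 10 members, and for 49.2% of all tested genes. The members' median log2 fold change was -0.05, beside 0.00 for all tested genes, and their median absolute log2 fold change was 0.14, beside 0.24.

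The promoters of SMARCA2, PBRM1 and SMARCA4 are shown because these genes had the largest changes, in opposite directions. They are the first RefSeq promoter listed for each gene (250 bases before to 50 after the start, GRCh38.p14), 5′ to 3′ on the gene's strand. Of the 10 members 7 matched a promoter in the table. Capitals mark every match on either strand to any of the motifs searched. The GC box was searched as GGGCGG, and the CCAAT box by the letters of its name. The E-box of MYC and its relatives was searched as CACGTG. The site of the AP-1 factors FOS and JUN was searched as TGACTCA. The cyclic AMP response element of CREB was searched as TGACGTCA. None of these motifs contains another.
SMARCA2 (chr9:2015097-2015396, plus strand): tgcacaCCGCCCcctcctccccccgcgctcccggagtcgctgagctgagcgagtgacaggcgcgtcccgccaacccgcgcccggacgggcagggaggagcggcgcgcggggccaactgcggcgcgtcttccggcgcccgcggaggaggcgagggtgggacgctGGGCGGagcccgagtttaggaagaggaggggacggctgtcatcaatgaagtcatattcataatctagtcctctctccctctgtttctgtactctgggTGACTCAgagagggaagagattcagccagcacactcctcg
PBRM1 (chr3:52685864-52686163, minus strand): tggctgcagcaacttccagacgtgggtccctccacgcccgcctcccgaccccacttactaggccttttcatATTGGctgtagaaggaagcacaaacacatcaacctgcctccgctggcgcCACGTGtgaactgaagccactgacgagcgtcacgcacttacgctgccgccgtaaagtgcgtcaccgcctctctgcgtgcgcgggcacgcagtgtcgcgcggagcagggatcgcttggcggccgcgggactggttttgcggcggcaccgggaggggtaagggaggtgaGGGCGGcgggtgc
SMARCA4 (chr19:10960780-10961079, plus strand): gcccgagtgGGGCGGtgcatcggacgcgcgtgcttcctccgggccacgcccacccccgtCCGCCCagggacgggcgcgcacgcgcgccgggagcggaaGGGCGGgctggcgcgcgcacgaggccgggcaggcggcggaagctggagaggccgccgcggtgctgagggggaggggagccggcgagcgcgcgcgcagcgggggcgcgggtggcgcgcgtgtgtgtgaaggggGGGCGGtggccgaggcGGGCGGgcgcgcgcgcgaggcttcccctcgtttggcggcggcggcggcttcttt

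The SMARCA2 window holds 2 GC boxes and 1 AP-1 site, which begins at base 11 counted from the start. The PBRM1 window holds 1 GC box, 1 CCAAT box read on the other strand, and 1 E-box that begins 130 bases before the start. The SMARCA4 window holds 5 GC boxes and none of the other motifs searched, and 81.3% of its bases are G or C, beside 66.7% for SMARCA2 and 65.3% for PBRM1. Over 35116 RefSeq promoters of the same length, 45.0% hold a GC box, 34.6% a CCAAT box, 7.26% an E-box, 4.95% an AP-1 site and 1.85% a cyclic AMP response element. SMARCA2 has 4 promoters in the table, of which the AP-1 site is in 1, and PBRM1 has 2, of which the E-box is in 1. SMARCB1, a member called lower, has 1 promoter in the table, and it also holds an AP-1 site, beside a GC box and a CCAAT box. A GC box is in 1 of the 2 SMARCA4 promoters, 1 of the 4 SMARCA2 promoters and 2 of the 2 PBRM1 promoters. No promoter listed for any of the 7 matched members holds a cyclic AMP response element. These matches are letters in a window, and no binding was measured.

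SMARCA2 (ENSG00000080503, chromosome 9, 1980290 to 2193624, plus strand, hg38), the ATPase also called BRM, had 1048, 1088 and 1125 counts in siTCF19, against 766, 876 and 811 counts in siNC. That is 66.3, 72.7 and 72.5 CPM in siTCF19, against 52.6, 55.8 and 52.0 CPM in siNC. Every siTCF19 library lay above every siNC library. SMARCA2 rose 1.32-fold (95% interval 1.21 to 1.44; edgeR adjusted p = 1.20e-06), which is 0.40 ± 0.06 (SE) on the log2 scale.

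SMARCA4 (ENSG00000127616, chromosome 19, 10960825 to 11079426, plus strand), the ATPase also called BRG1, had 6234, 5775 and 5932 counts in siTCF19, against 6296, 7524 and 6927 counts in siNC. Scaled, these were 394, 386 and 382 CPM in siTCF19, against 433, 479 and 444 CPM in siNC. The groups did not overlap, and the siTCF19 libraries lay closer together than the siNC libraries. SMARCA4 fell to 0.857 of its siNC level (95% interval 0.805 to 0.913; edgeR adjusted p = 8.07e-05), which is -0.22 ± 0.04 (SE) on the log2 scale.

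The balance between the ATPases can be read within each library, where library scaling cancels. Per kilobase of gene length, SMARCA2 made up 12.5%, 13.8% and 13.9% of the summed ATPase level in siTCF19, against 9.36%, 8.99% and 9.04% in siNC. The groups did not overlap, and SMARCA4 remained the more abundant transcript in all 6 libraries. The share averaged 13.4% ± 0.774 in siTCF19 and 9.13% ± 0.200 in siNC (SD, n = 3 each), a difference of 4.25 percentage points. The exact two-sided permutation test over libraries gave p = 0.1, the smallest that 3 against 3 allows, or 0.3 adjusted over the 3 paralogue pairs compared. The share was 13.0% in siTCF19 and 8.85% in siNC when each gene was divided by its longest annotated coding transcript instead.

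**Figure D1:**
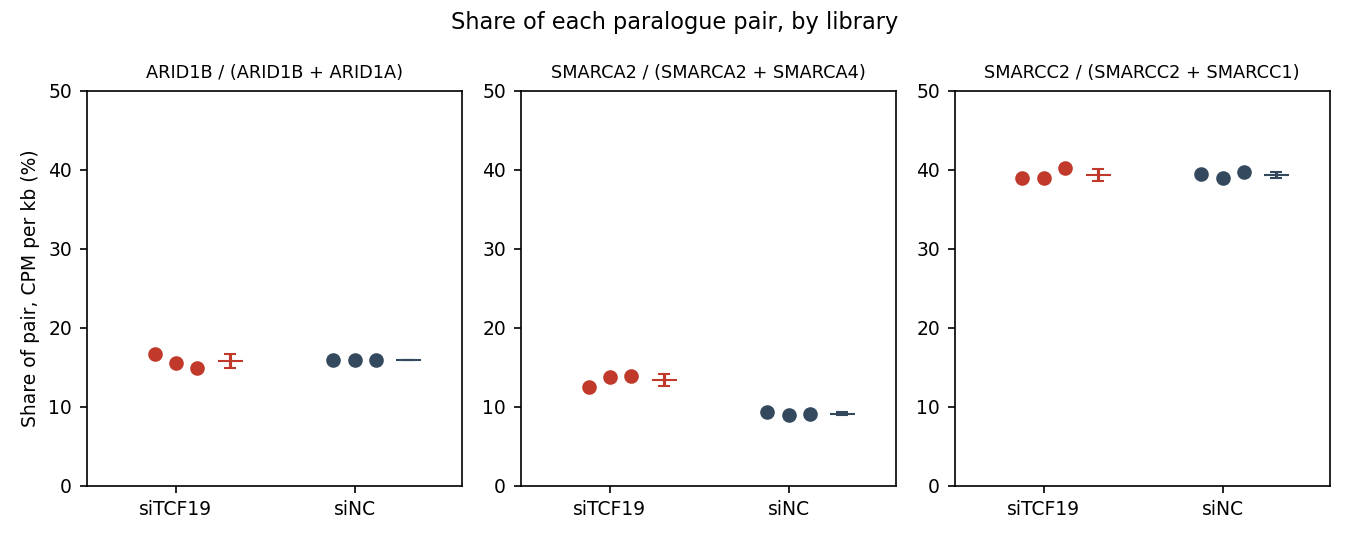
Share of the first-named gene in the summed level of its paralogue pair (percent of CPM per kilobase of gene length) in each siTCF19 (red) and siNC (dark) library. Points are libraries and bars are the mean and SD (n = 3 each). The SMARCA2 share is 12.5% to 13.9% in siTCF19 and 8.99% to 9.36% in siNC, while the points of the groups overlap for ARID1B and SMARCC2.

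Among the core subunits, SMARCC1 (BAF155; ENSG00000173473, chromosome 3, 47585272 to 47782106, minus strand), a scaffold of the complex, had 257, 248 and 239 CPM in siTCF19, against 271, 280 and 266 CPM in siNC. Its paralogue SMARCC2 (BAF170; ENSG00000139613, chromosome 12, 56162983 to 56189567, minus strand), which can take the same place, had 183, 177 and 180 CPM in siTCF19, against 197, 200 and 196 CPM in siNC. Neither gene's groups overlapped. SMARCC1 fell with a log2 fold change of -0.13 ± 0.05 (SE; edgeR adjusted p = 0.0169), and SMARCC2 with one of -0.13 ± 0.05 (SE; edgeR adjusted p = 0.0197). Both calls were lost under some alternatives, where the adjusted p reached 0.188 for SMARCC1 and 0.206 for SMARCC2.

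SMARCC2 accounted for 38.9%, 38.9% and 40.2% of the summed SMARCC1 and SMARCC2 level per kilobase in siTCF19, against 39.4%, 38.9% and 39.7% in siNC. These shares overlapped and differed by 0.0159 percentage points (exact permutation p = 0.9, adjusted p = 0.9). With the longest annotated coding transcript as the length, the SMARCC2 share was 52.0% in both siTCF19 and siNC, so which gene is the more abundant depends on the length used. The exons of SMARCC2 share 514 bases with MYL6 on the opposite strand, a myosin light chain gene with 7941 to 9548 counts in siTCF19 and 6034 to 7150 in siNC. Whether counting used strand is not known from the labels, and the part of MYL6 reads in the SMARCC2 value was not tested.

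SMARCB1 (SNF5; ENSG00000099956, chromosome 22, 23786931 to 23838008, plus strand), a core subunit that contacts the nucleosome and a known tumour suppressor, had 103, 110 and 116 CPM in siTCF19, against 117, 132 and 123 CPM in siNC. The groups lay apart, but the highest siTCF19 and the lowest siNC library were 116 and 117 CPM. SMARCB1 fell with a log2 fold change of -0.18 ± 0.06 (SE; edgeR adjusted p = 0.00858), a call lost under some alternatives, where the adjusted p reached 0.114. Its exons share 2923 bases with DERL3 on the opposite strand, which had at most 26 counts in siTCF19 and 19 in siNC. These are 56.1% of the bases of its longest coding transcript, though none of the coding bases. How reads there were counted is not known, so the SMARCB1 level is uncertain too.

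SMARCE1 (BAF57; ENSG00000073584, chromosome 17, 40624962 to 40648864, minus strand), a DNA-binding core subunit with an HMG box, had 339, 399 and 312 counts in siTCF19, against 301, 348 and 371 counts in siNC. At 21.4, 26.7 and 20.1 CPM in siTCF19, against 20.7, 22.1 and 23.8 CPM in siNC, its groups overlapped. Its log2 fold change of 0.03 was not called (95% interval -0.17 to 0.23; edgeR adjusted p = 0.831). Of the coding bases of its longest transcript 91.5% are also annotated to AC073508.2, a protein-coding gene on the same strand that had 0 counts in every library, so the low SMARCE1 level is uncertain. The table also lists 7 pseudogenes named after members, all of SMARCE1, with at most 24 counts over the 6 libraries.

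The ARID subunits of canonical BAF, ARID1A and ARID1B, showed no called change. ARID1A (BAF250A; ENSG00000117713, chromosome 1, 26693236 to 26782110, plus strand), the DNA-binding subunit often inactivated in endometrial carcinoma, had 182, 196 and 182 CPM in siTCF19, against 179, 187 and 175 CPM in siNC. ARID1B (BAF250B; ENSG00000049618, chromosome 6, 156776020 to 157210779, plus strand), its paralogue, had 102, 101 and 89.6 CPM in siTCF19, against 95.1, 99.7 and 92.3 CPM in siNC. Both genes' groups overlapped. The fold of ARID1A was 1.03 (95% interval 0.966 to 1.11; edgeR adjusted p = 0.460) and that of ARID1B was 1.02 (95% interval 0.943 to 1.11; edgeR adjusted p = 0.703). ARID1B made up 15.7% ± 0.870 of the summed ARID1 level per kilobase in siTCF19 and 15.9% ± 0.0497 in siNC (SD, n = 3 each; exact permutation p = 0.7, adjusted p = 0.9). The size of this share depends on the length used. Divided by the longest annotated coding transcript, it was 29.4% in siTCF19 and 29.6% in siNC.

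The members that mark PBAF, PBRM1 and ARID2, went in opposite directions. PBRM1 (BAF180; ENSG00000163939, chromosome 3, 52545352 to 52685917, minus strand), which reads acetylated histones through its bromodomains, had 3498, 3510 and 3021 counts in siTCF19, against 2469, 2705 and 2431 counts in siNC. That is 221, 234 and 195 CPM in siTCF19, against 170, 172 and 156 CPM in siNC. Every siTCF19 library was above every siNC library, and in both groups replicate 3 was the lowest, though the labels give the numbers no meaning across groups. PBRM1 rose 1.31-fold (95% interval 1.21 to 1.41; edgeR adjusted p = 1.66e-07), which is 0.39 ± 0.05 (SE) on the log2 scale. Its exons share 146 bases with SMIM4 on the opposite strand, which had 238 to 308 counts in siTCF19 and 201 to 251 in siNC.

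ARID2 (BAF200; ENSG00000189079, chromosome 12, 45729665 to 45908040, plus strand), the ARID subunit of PBAF, had 116, 126 and 105 CPM in siTCF19, against 126, 130 and 129 CPM in siNC. The groups overlapped, since the second siTCF19 library was above the lowest siNC library. ARID2 fell with a log2 fold change of -0.15 ± 0.06 (SE; edgeR adjusted p = 0.0315), a call lost under some alternatives, where the adjusted p reached 0.288.

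**Figure D2:**
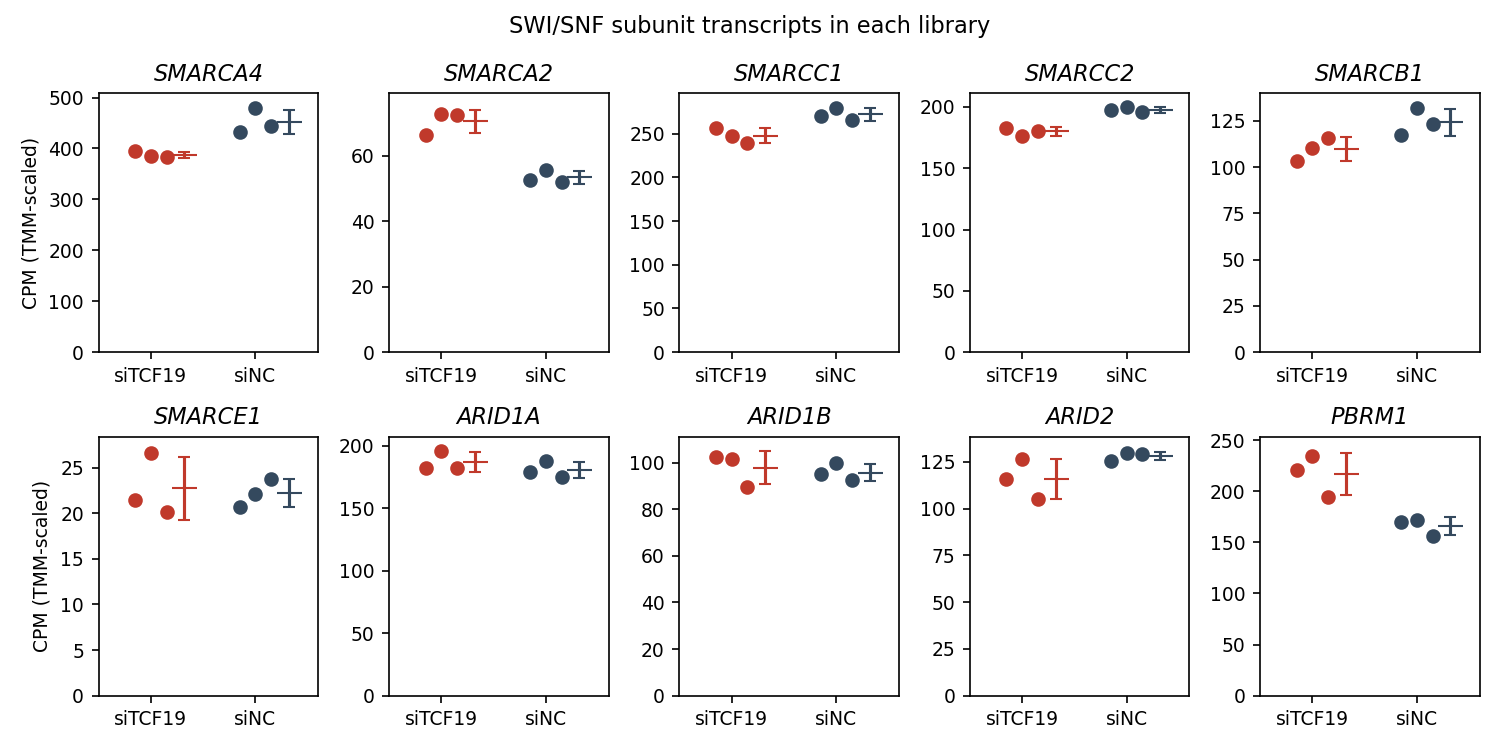
CPM of each member in each siTCF19 (red) and siNC (dark) library on axes that start at 0, with the mean and SD beside the points (n = 3 each). The siTCF19 points lie above all siNC points for SMARCA2 and PBRM1, and below them for SMARCA4, SMARCC1, SMARCC2 and SMARCB1. The ranges of the groups overlap for SMARCE1, ARID1A, ARID1B and ARID2.

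The rises of SMARCA2 and PBRM1 and the fall of SMARCA4 were called under all 16 alternatives tried, while the 4 smaller falls were not. With library-size-only scaling SMARCB1 (adjusted p = 0.0820), ARID2 (0.218), SMARCC1 (0.188) and SMARCC2 (0.206) were not called, so 1 member was lower, and that scaling moved the share of higher genes among all calls to 61.4%, from 49.9%. ARID2 was also not called by DESeq2 (adjusted p = 0.0567), on the log2(FPKM + 1) scale (0.138), or without siTCF19 replicate 1 (0.0920) or 3 (0.288) or siNC replicate 2 (0.0773) or 3 (0.0967). SMARCB1 was not called on the log2(FPKM + 1) scale (0.0991) or without siTCF19 replicate 1 (0.114) or siNC replicate 2 (0.0826). SMARCC1 was not called without siTCF19 replicate 3 (0.0880) or siNC replicate 2 (0.0727), and SMARCC2 without siTCF19 replicate 2 (0.0648) or siNC replicate 1 (0.0516), 2 (0.0538) or 3 (0.0551). Leaving out siTCF19 replicate 1 or 3 or siNC replicate 3 left 3 members lower, and leaving out siNC replicate 2 left 1. The authors' deposited table, made from the same libraries, lists 6 of the 10 members at an adjusted p under 0.05, and there ARID2 has an adjusted p of 0.0636 and the same log2 fold change of -0.15.

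On the deposited FPKM scale, which divides by gene length, the members spanned a wide range of levels. SMARCC1 had the highest mean over the 6 libraries (33.7 FPKM, 91.9% of tested genes below it), followed by SMARCA4 (26.4), SMARCC2 (21.9), PBRM1 (19.6), ARID1A (11.4), ARID2 (9.97), SMARCB1 (7.01), SMARCA2 (3.30), ARID1B (2.15) and SMARCE1 (1.19). Neighbours in this order did not overlap between any libraries, except SMARCC2 (20.4 to 23.2 FPKM) and PBRM1 (16.0 to 24.0 FPKM). PBRM1 averaged 22.3 ± 2.04 FPKM in siTCF19 and 17.0 ± 0.945 FPKM in siNC, and SMARCC2 20.9 ± 0.480 FPKM in siTCF19 and 22.9 ± 0.302 FPKM in siNC (SD, n = 3 each).

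The order depends on the length used. The authors' gene length counts every annotated exon and was 1.20 times the longest coding transcript for SMARCC1, 1.28 times for PBRM1, 2.73 times for SMARCA4, 3.17 times for SMARCB1 and 4.13 times for ARID1B. With the longest coding transcript in its place, SMARCA4 came first (71.8 on the FPKM scale), and SMARCC2 (43.8) passed SMARCC1 (40.4). SMARCB1 (22.2) passed ARID1A (21.2), ARID1B (8.87) passed SMARCA2 (8.70), and SMARCE1 (3.59) stayed last. The places of SMARCB1 and SMARCE1 are uncertain in both orders. Other genes share 56.1% of the bases of the longest SMARCB1 coding transcript and 59.7% of those of SMARCE1. How reads there were counted is not known. Summed over the members, counts made up 0.168%, 0.171% and 0.161% of the libraries in siTCF19, against 0.163%, 0.170% and 0.163% in siNC, and the groups overlapped.

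**Figure D3:**
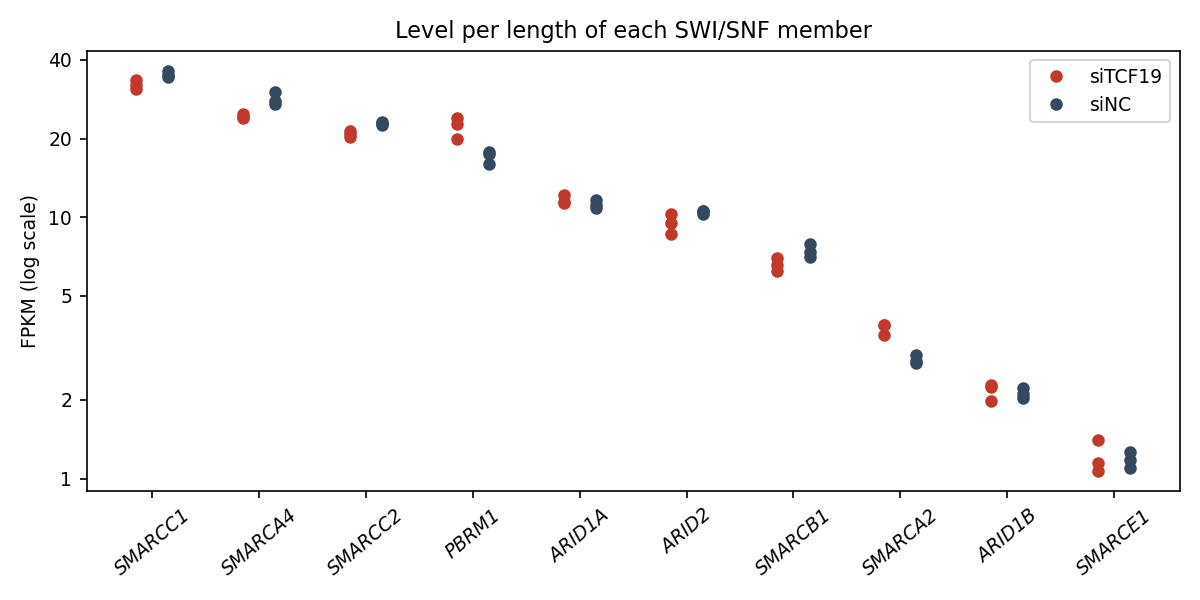
Deposited FPKM (log axis) of each member in the siTCF19 (red, left) and siNC (dark, right) libraries, ordered by the mean over 6 libraries. Levels run from 33.7 for SMARCC1 to 1.19 for SMARCE1, and SMARCC2 and PBRM1 are the neighbours that overlap. The SMARCB1 and SMARCE1 levels are uncertain, because other genes share many of their exon bases.

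The other 19 subunit genes of the complexes were read from the same test. Of these 18 were tested, 2 rose, 6 fell and 10 were not called, with a median log2 fold change of -0.09, and the neuronal subunit gene ACTL6B had no count in any library. The called share was 44.4%, near the 41.5% of all tested genes, of which 20.7% were higher and 20.8% lower. SS18L1 (CREST), a subunit of canonical and non-canonical BAF, had a log2 fold change of -0.43 ± 0.07 (SE; edgeR adjusted p = 6.32e-07), and averaged 49.3 CPM in siTCF19 and 66.6 CPM in siNC. The actin-related subunits ACTL6A (BAF53A; 104 CPM in siTCF19 and 124 CPM in siNC) and ACTB (4144 CPM in siTCF19 and 4851 CPM in siNC), which is also the cytoskeletal beta-actin, fell with log2 fold changes of -0.25 and -0.23 (edgeR adjusted p = 0.000121 and 3.90e-06). DPF1 (BAF45B), a PHD finger subunit known from neurons, rose with a log2 fold change of 0.61 ± 0.11 (SE; edgeR adjusted p = 9.64e-06) at 22.3 CPM in siTCF19 and 14.6 CPM in siNC.

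The remaining calls are named here after their values were seen. SMARCD3 (BAF60C), a subunit known from muscle and heart, rose (log2 fold change 0.52; edgeR adjusted p = 0.00827), at 7.46 CPM in siTCF19 and 5.20 CPM in siNC, while its more abundant paralogue SMARCD2 fell (-0.17; adjusted p = 0.00528) and SMARCD1 had -0.05 (adjusted p = 0.418). SS18, the paralogue of SS18L1, fell (-0.16; edgeR adjusted p = 0.0107), as did BRD9 (-0.21; adjusted p = 0.00187), which marks the non-canonical complex. The other PBAF subunits BRD7 (0.08; edgeR adjusted p = 0.305) and PHF10 (-0.07; adjusted p = 0.348) were not called, nor were BICRA (-0.11; adjusted p = 0.379) and BICRAL (-0.11; adjusted p = 0.295) of the non-canonical complex. SMARCD3 was not called without siNC replicate 2 (adjusted p = 0.0561; 0.00125 to 0.0561 over the alternatives), and the authors' deposited table gives it an adjusted p of 0.0563. SS18 was not called without siTCF19 replicate 3 (0.0698) or siNC replicate 3 (0.0573) or with library-size-only scaling (0.107), nor was SMARCD2 with that scaling (0.0691). With library-size-only scaling 5 of these 18 genes were higher and 4 lower.

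**Figure D4:**
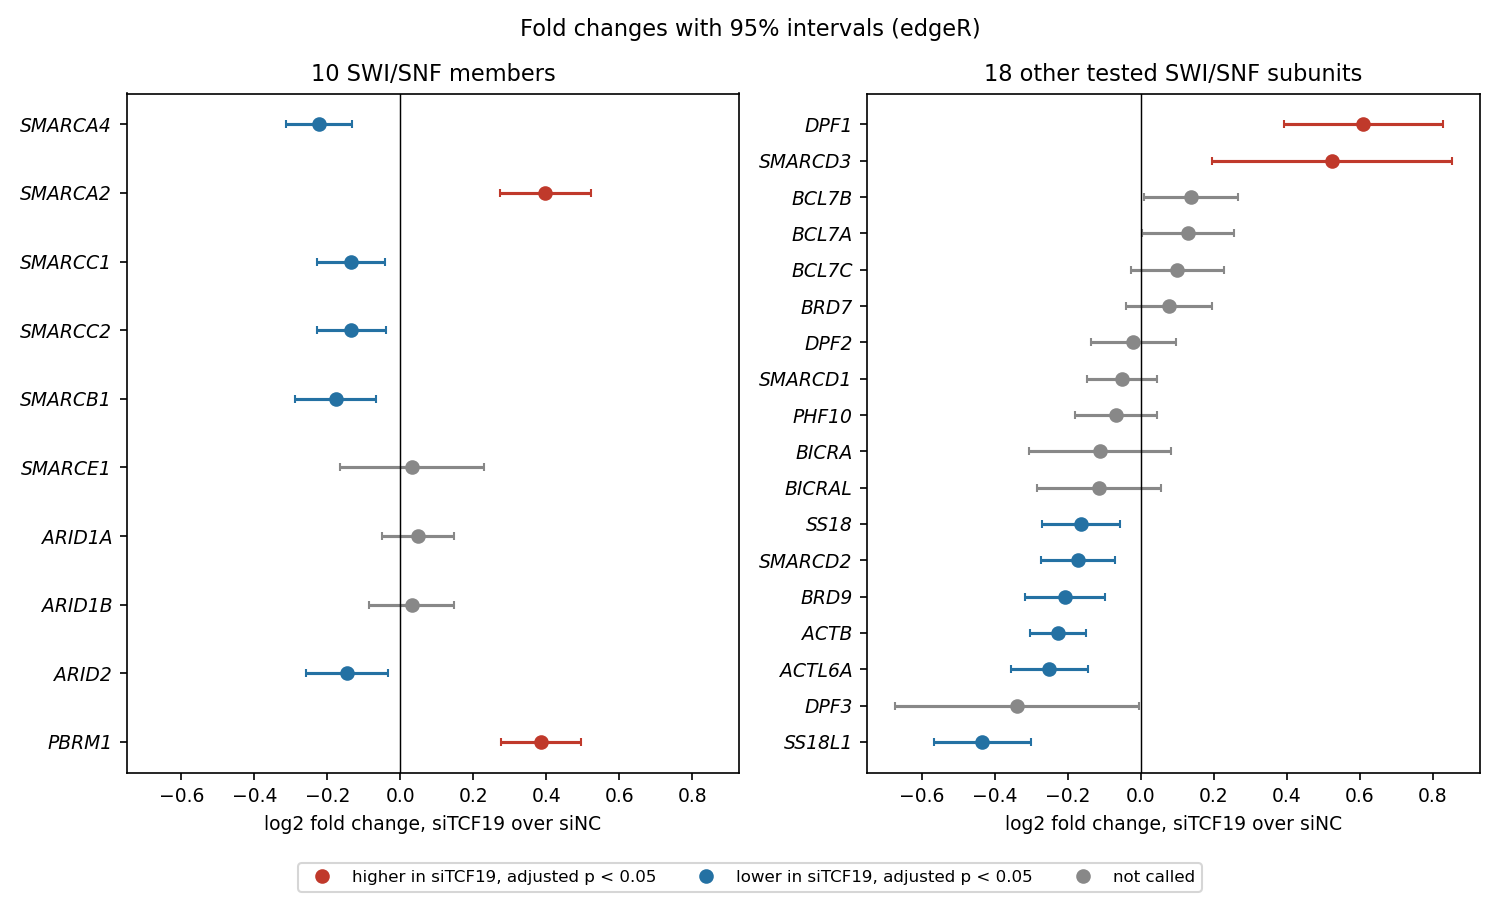
Log2 fold change, siTCF19 over siNC, with 95% intervals from edgeR for the 10 members (left) and the 18 other tested subunits (right). Red marks genes called higher in siTCF19, blue those called lower and grey those not called. SMARCA2 (0.40), PBRM1 (0.39), DPF1 (0.61) and SMARCD3 (0.52) lie to the right, and SS18L1 (-0.43) lies farthest left.

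Other chromatin regulators were counted beside the subunits, and no difference between the lists was tested. Of 11 ISWI remodeller genes 2 rose and 4 fell, of 13 tested CHD and NuRD genes 1 rose and 6 fell, of 15 tested INO80, SRCAP and TIP60 genes 1 rose and 6 fell, and of 5 genes of PRC2, the Polycomb complex that SWI/SNF opposes, 1 rose and 3 fell. The median log2 fold changes of these lists were -0.09, -0.08, -0.03 and -0.14. Their called shares were 54.55%, 53.85%, 46.67% and 80%. Of all tested genes 41.5% were called (20.7% higher and 20.8% lower), and 56.3% of those within the members' range of mean level. The histone-fold gene POLE3 (-0.43) and the AAA+ ATPase genes RUVBL1 (-0.44) and RUVBL2 (-0.40) fell, as did the NuRD genes MTA1 (-0.38), MTA2 (-0.33), HDAC2 (-0.32) and CHD4 (-0.32), and TRRAP (-0.26) and INO80E (-0.23). In ISWI complexes the histone-fold gene CHRAC1 (0.36) rose, and BAZ1A (-0.23) and BAZ1B (-0.16) fell. BAZ1A was not called on the log2(FPKM + 1) scale (adjusted p = 0.0511) or without siNC replicate 3 (0.0524), and BAZ1B lost its call under library-size-only scaling (0.0735). In PRC2 the zinc finger subunit gene SUZ12 rose (0.36; edgeR adjusted p = 1.14e-06), JARID2 fell (-0.36; adjusted p = 0.000792), and the methyltransferase genes EZH1 (-0.22; adjusted p = 0.0239) and EZH2 (-0.14; adjusted p = 0.0390) fell. DESeq2 did not make the last 2 calls (0.0558 for EZH1 and 0.0511 for EZH2), which were lost under 6 and 9 of 16 alternatives, with adjusted p up to 0.222 for EZH1 and 0.271 for EZH2.

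SMARCA2 had the largest called change of the members, and the genes nearest to it over the 6 libraries were found by the root mean square difference of centred log2 CPM, over 10961 protein-coding genes that averaged 5 CPM or more. They were CD99 (0.0249), a cell surface glycoprotein, ZFYVE26 (0.0254), PNMA1 (0.0274) and ATRN (0.0278). Their log2 fold changes were 0.36, 0.37, 0.39 and 0.40. This likeness is a description over 6 libraries in 2 groups.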

How the data were processed

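The authors deposited 1 table that holds, per the file headers, raw counts and FPKM for each of 6 libraries, together with their own test (group mean signal, log2 fold change, p-value, adjusted p-value). The submitters' processing notes name HISAT2 2.0.5, featureCounts 1.5.0-p3 and hg38. The treatment of strand, and of reads in several genes or places, was not given in the sources used here. Identifiers, starts and ends of all 58735 genes equalled GENCODE release 29.

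Counts were tested as deposited with edgeR 4.0.16 in R 4.3.3 (filterByExpr, TMM, glmQLFit and glmQLFTest, group as the only term), with Benjamini-Hochberg adjustment over 17299 genes, and steps were tested on simulated data. Tested genes held at least 99.7% of each library's counts. CPM are TMM-scaled, and intervals cover the spread between libraries only. PCR copies cannot be recognised. Pairs of libraries of 1 group differed by more than counting noise (chi-square per degree of freedom 2.27 to 3.76). Alternatives used DESeq2 1.42.0, limma 3.58.1 (voom, and trend on log2(FPKM + 1)), other scalings and filters, the replicate number as a block, and each library left out. Named were TCF19, the 10 members, up to 4 called genes per other list by lowest p, and the 4 nearest patterns; single cell type markers and further subunits were named after their values were seen. The members and lists were chosen with earlier results of these data known. Figures used matplotlib 3.10.9.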

Additional observations from a re-analysis of the deposited data

How the results depend on the processing

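The count of 2 higher members was unchanged under all alternatives. The count of lower members (5) was 1 with library-size-only scaling, 3 on the log2(FPKM + 1) scale, 2 at an adjusted p under 0.01, and 1 to 4 with each library left out. Library-size-only scaling gave all genes a median log2 fold change of 0.06 in place of 0.00. Under it, higher counts were 5 for other subunits (2), 4 for ISWI genes (2) and 2 for INO80-family genes (1), and the lower PRC2 count was 1 (3). ISWI genes higher were 1 on the log2(FPKM + 1) scale. INO80-family genes higher were 0 with no filter, by DESeq2 and at an adjusted p under 0.01 (2 at an unadjusted p under 0.05 by edgeR), and PRC2 genes lower were 1 by DESeq2 and at an adjusted p under 0.01. With each library left out, other subunits higher were 1 to 2, INO80-family genes higher 0 to 2 and PRC2 genes lower 1 to 3. Differences in share ranged from -0.629 to 0.231 percentage points for ARID1B, from -0.422 to 0.245 for SMARCC2 and from 4.005 to 4.694 for SMARCA2. The log2 fold change of SMARCE1 was -0.0886 to 0.118 with each library left out, negative without siTCF19 replicate 2 or siNC replicate 1. The causes were not tested.

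The labels do not say whether replicate numbers pair the libraries. Same-numbered deviations from the group means correlated at 0.0086, -0.0241 and 0.021, and differently numbered ones at -0.0291 to 0.0202. These values show no shared effect of the number, but cannot show how the libraries were handled. With the replicate number as a block 2 members were higher and 4 lower, SMARCC2 having an adjusted p of 0.05001. At 301 to 399 counts, the log2 fold change of SMARCE1 had a 95% interval of -0.17 to 0.23, so changes within that interval are not excluded.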
